A study of Homo sapiens with 6 samples.

Results

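Collagens, laminins and integrins are the chains that build the extracellular matrix and the receptors that hold cells to it, and their mRNA was followed in A549 cells with less BAP18. A549 is a human lung adenocarcinoma line. The genes were taken by symbol (COL with a number, A and a number; LAMA, LAMB or LAMC with a number; ITGA or ITGB with their suffix) where their counts summed to at least 30 over all libraries. This kept 70 of the 80 matching symbols among 35474 listed genes, namely 34 collagen, 11 laminin and 25 integrin chains. The 2 groups were A549 cells given a non-specific siRNA (siCtrl) and A549 cells given an siRNA against BAP18 (siBAP18), each with 3 biological replicates collected 48 h after transfection. Both groups are the same line under a transient transfection, and the sources used here do not say which of the study's 3 BAP18 siRNAs was given. The study asked which genes depend on BAP18, a subunit of chromatin complexes that bind methylated histone H3.

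Collagen chains fold into triple helices: fibrillar collagens form fibres, and network collagens such as collagen IV form the sheet of the basement membrane under epithelial cells. A laminin is a cross-shaped trimer of 1 α, 1 β and 1 γ chain that polymerises into the same sheet. An integrin is a pair of 1 α and 1 β chain at the cell surface, in which the α chain largely sets whether collagen, laminin or proteins with an RGD motif are bound. Lung epithelial cells sit on laminin and collagen IV through such receptors.

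The 6 collagen IV genes lie in head-to-head pairs, and the sequence between their starts is shown because the genes of a pair share it and their changes are compared here. Each line gives the stretch between the partners' RefSeq starts, or its last 250 bases where it is longer, on the + strand of GRCh38.p14. Capitals mark the GC box, GGGCGG on either strand.
COL4A1 and COL4A2, chr13:110307158-110307283: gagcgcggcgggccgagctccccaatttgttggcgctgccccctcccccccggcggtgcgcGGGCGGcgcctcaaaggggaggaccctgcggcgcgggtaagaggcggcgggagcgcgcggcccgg
COL4A4 and COL4A3, chr2:227164374-227164623: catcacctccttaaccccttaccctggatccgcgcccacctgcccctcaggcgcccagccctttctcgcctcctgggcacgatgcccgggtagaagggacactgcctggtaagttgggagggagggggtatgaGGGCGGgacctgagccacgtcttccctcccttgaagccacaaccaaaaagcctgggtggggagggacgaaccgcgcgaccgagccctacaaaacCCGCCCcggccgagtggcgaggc
COL4A6 and COL4A5, chrX:108439588-108439837: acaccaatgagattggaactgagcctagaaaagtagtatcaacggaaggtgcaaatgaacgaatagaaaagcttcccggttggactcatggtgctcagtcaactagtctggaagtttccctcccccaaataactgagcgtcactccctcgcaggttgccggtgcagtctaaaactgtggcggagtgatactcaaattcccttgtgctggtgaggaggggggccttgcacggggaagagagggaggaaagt
The starts are 127, 419 and 380 bases apart in the order shown. COL4A6 has another RefSeq start at chrX:108438422, farther from COL4A5, and the nearer one at 108439458 was used. The promoter window of that other start holds 1 GC box. The stretches hold 1, 2 and 0 GC boxes, and their GC content is 80.2%, 66.4% and 51.2%.

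BAP18 is listed as C17orf49 and was at 14.0, 16.1 and 15.1 CPM in siCtrl replicates 1, 2 and 3 and at 2.21, 2.35 and 2.66 CPM in siBAP18 replicates 1, 2 and 3. Every siBAP18 library was below every siCtrl library, with a log2 fold change of −2.65 (SE 0.11, adjusted p = 7.31e-16) by the quasi-likelihood test of edgeR, adjusted after Benjamini and Hochberg over 20776 genes. CPM are counts scaled to the TMM-adjusted library total, and all adjusted p-values below come from that test. Total counts ran from 46035635 to 53657450 in siCtrl and from 42094524 to 56548620 in siBAP18. Mitochondrial genes took 6.86% to 7.43% of the counts in siCtrl and 5.27% to 6.14% in siBAP18. Of the counts from 1 to 50, 72.9% to 75.4% were even, against 52.2% to 54.6% of counts over 500, and whether mates of a read pair were counted separately, which would leave fewer independent fragments behind a low count, was not tested. Each p-value sets the group difference against the spread between these cultures of A549. It does not cover other lines or other siRNAs. In bulk RNA, fewer cells expressing a gene and less RNA per cell cannot be told apart.

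Of the 66 members that passed the filter on low counts, 15 rose and 24 fell at an adjusted p under 0.05. Over all genes tested, 24.5% rose and 25.1% fell at that threshold, so the rises were near the background and the falls above it, a difference that was not tested. This background was not matched to the members for expression level. With an absolute log2 fold change over 1 as well, 4 of the 66 were higher and 2 were lower. These are near the shares of all genes, 4.72% and 3.74%. The libraries of the 2 groups did not overlap for 42 of the 66, and for 56.6% of all genes. The median log2 fold change was 0.06 over 33 collagens, 0.09 over 10 laminins and −0.17 over 23 integrins, beside 0.001 over all genes. The collagen and laminin medians changed sign under some alternative analyses. The collagens divided into 6 higher, 10 lower and 17 others, the laminins into 5, 3 and 2, and the integrins into 4, 11 and 8.

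**Figure D1:**
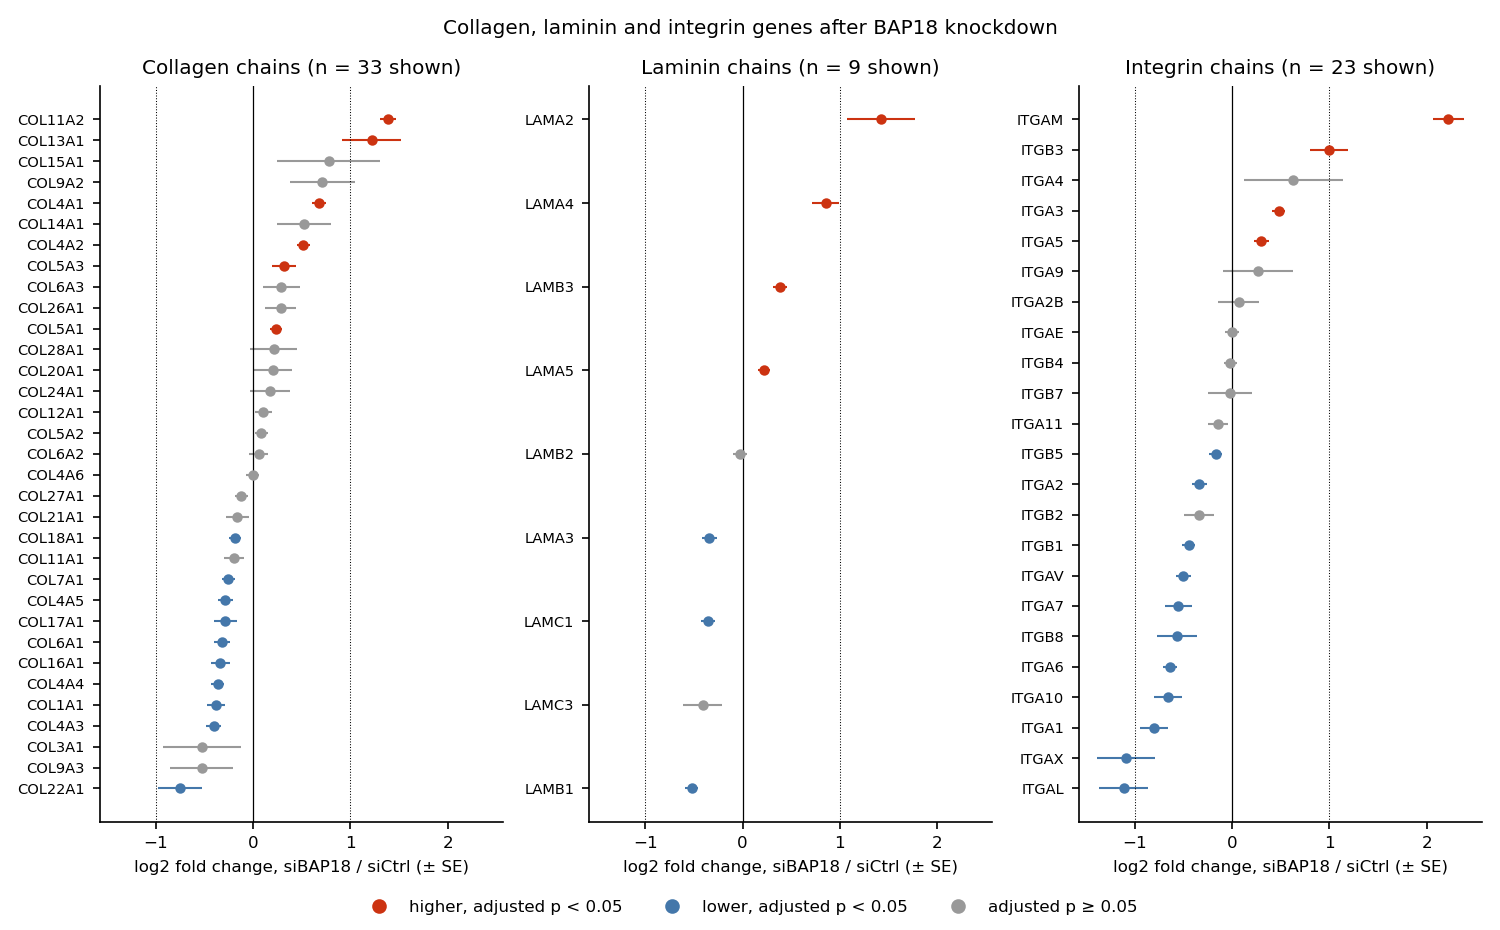
Log2 fold change (siBAP18 against siCtrl, with its standard error) of the tested members but 1, in 3 panels by family, with red for higher and blue for lower at an adjusted p under 0.05 and grey for the rest. ITGAM has the highest value, 2.22, and ITGAL the lowest, −1.11.

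The 6 members past both thresholds were expressed at low levels except COL11A2, a minor fibrillar collagen chain of cartilage. It was at 9.53, 10.6 and 9.56 CPM in siCtrl replicates 1, 2 and 3 and at 26.0, 26.4 and 25.2 CPM in siBAP18 replicates 1, 2 and 3. The groups stood far apart beside the spread within each, with a log2 fold change of 1.38 (SE 0.08, adjusted p = 3.58e-13). COL11A2 lies at chr6:33162681-33192499 on the − strand of GRCh38. COL13A1, a collagen that spans the cell membrane (chr10:69801931-69964275, + strand), was at 0.526, 0.344 and 0.513 CPM in siCtrl and at 0.735, 1.20 and 1.33 CPM in siBAP18. All 3 siBAP18 libraries were above the control libraries, and the log2 fold change of 1.22 (SE 0.30, adjusted p = 0.00159) rested on 232 counts in all. LAMA2, the α chain of muscle and nerve laminins (chr6:128883141-129516569, + strand), was at 0.432, 0.323 and 0.171 CPM in siCtrl and at 0.974, 0.839 and 0.691 CPM in siBAP18. The groups did not overlap, with a log2 fold change of 1.42 (SE 0.35, adjusted p = 0.00138) from 176 counts in all.

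Among these 6, 3 are α chains of the β2 integrins of white blood cells. ITGAM, the α chain of the complement receptor Mac-1 (chr16:31259990-31332892, + strand), was at 1.62, 1.29 and 1.28 CPM in siCtrl replicates 1, 2 and 3 and at 7.85, 6.22 and 5.50 CPM in siBAP18 replicates 1, 2 and 3. The lowest siBAP18 library was above every control library, with a log2 fold change of 2.22 (SE 0.16, adjusted p = 1.84e-11), or 4.66-fold. ITGAX, the α chain of a related complement receptor, begins 22241 bases beyond ITGAM on chromosome 16 and was at 1.24, 0.688 and 1.11 CPM in siCtrl and at 0.423, 0.514 and 0.493 CPM in siBAP18. It moved the opposite way, with a log2 fold change of −1.09 (SE 0.30, adjusted p = 0.00349). ITGAL, the α chain of the lymphocyte receptor LFA-1 (chr16:30472658-30523185, + strand), was at 1.39, 1.55 and 1.37 CPM in siCtrl and at 0.662, 0.479 and 0.888 CPM in siBAP18. Its groups did not overlap either, with a log2 fold change of −1.11 (SE 0.25, adjusted p = 6.55e-04). Without siCtrl replicate 1 ITGAX no longer passed both thresholds, and without siBAP18 replicate 2 ITGAL did not.

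ITGB2, the β chain that all of these α chains need, was at 3.14, 3.50 and 3.79 CPM in siCtrl and at 2.33, 3.13 and 2.74 CPM in siBAP18, with a log2 fold change of −0.34 (SE 0.15, adjusted p = 0.0628). ITGAE, the α chain that binds E-cadherin, stood at −0.00046 on the log2 scale (with adjusted p = 0.996). Of the leukocyte markers, LCP1 rose by 1.28 on the log2 scale from 0.0642 to 0.156 RPKM, and CD14 stood at −0.18 on the log2 scale (with adjusted p = 0.599). The 3 leukocyte markers listed summed to 0.532 to 0.759 RPKM in siCtrl and 0.620 to 0.720 RPKM in siBAP18. Their part in the ITGAM, ITGAL and ITGAX values was not tested.

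**Figure D2:**
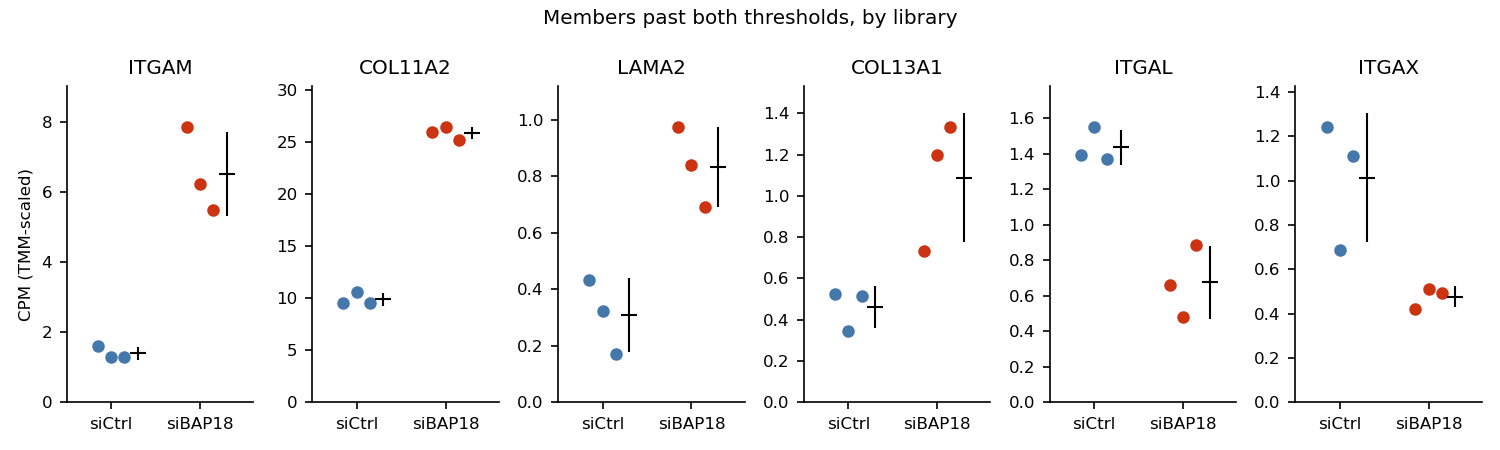
CPM of the 6 members past both thresholds in each library (blue, siCtrl; red, siBAP18; the bars are the mean and SD of 3 libraries; each panel has its own axis from 0). COL11A2 is near 10 CPM in siCtrl and near 26 CPM in siBAP18, while the others stay under 8 CPM in every library.

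In 2 of the 3 collagen IV gene pairs both genes moved the same way. COL4A1 and COL4A2, which make the common α1α1α2 trimer, both rose. COL4A1 was at 57.8, 60.9 and 63.3 CPM in siCtrl replicates 1, 2 and 3 and at 96.9, 103 and 90.3 CPM in siBAP18 replicates 1, 2 and 3, with a log2 fold change of 0.67 (SE 0.07, adjusted p = 1.24e-08). COL4A2 was at 205, 210.4 and 221 CPM in siCtrl and at 301, 301 and 308 CPM in siBAP18, with a log2 fold change of 0.52 (SE 0.06, adjusted p = 2.81e-07). All siBAP18 libraries were above all control libraries for both genes. COL4A3 and COL4A4 share the α3α4α5 trimer, the form of kidney and lung basement membranes. COL4A3 was at 37.8, 39.5 and 39.9 CPM in siCtrl and at 27.5, 33.1 and 27.9 CPM in siBAP18, with a log2 fold change of −0.40 (SE 0.08, adjusted p = 9.57e-05). COL4A4 was at 45.4, 46.3 and 43.7 CPM in siCtrl and at 34.1, 36.9 and 34.2 CPM in siBAP18, with a log2 fold change of −0.36 (SE 0.07, adjusted p = 9.31e-05). Both fell, and neither had a siBAP18 library inside the control range. The third pair was split. COL4A5, the other chain of that trimer, was at 72.4, 79.6 and 75.1 CPM in siCtrl and at 61.3, 68.2 and 56.8 CPM in siBAP18, with a log2 fold change of −0.28 (SE 0.07, adjusted p = 0.00214). COL4A6 was at 86.6, 89.1 and 88.1 CPM in siCtrl and at 87.9, 90.0 and 85.0 CPM in siBAP18. Its groups overlapped, with −0.0039 on the log2 scale (SE 0.06, adjusted p = 0.966). Of the summed RPKM of the 6 chains, COL4A1 and COL4A2 together made up 53.7, 53.3 and 55.2% in siCtrl and 66.9, 65.5 and 67.7% in siBAP18. In an exact two-sided permutation test over the libraries p = 0.1, the smallest p that 3 against 3 libraries allow. The share was chosen after the values were seen, so this p-value is no further support.

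**Figure D3:**
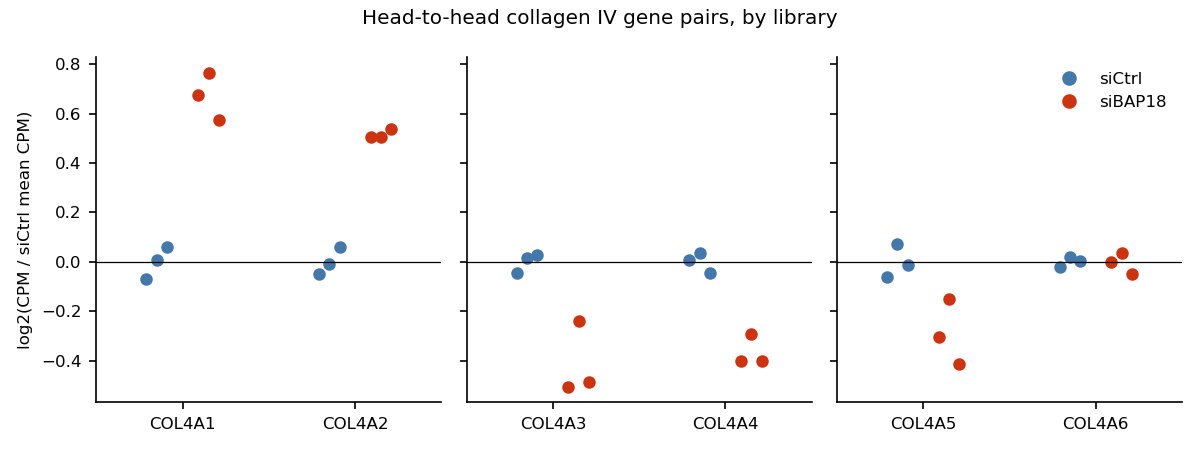
Log2 of CPM over the siCtrl mean for the 6 collagen IV genes in each library, with 1 panel per head-to-head pair. Both genes of the first pair lie above 0 in all 3 siBAP18 libraries, both of the second lie below 0, and in the third only COL4A5 is below its controls.

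Of the 3 most abundant collagens per length, COL4A2 rose as given, COL7A1 fell and COL5A2 did not pass. COL5A2, a chain of the fibrillar collagen that nucleates collagen I fibres, was highest per length at 72.8 ± 2.01 RPKM in siCtrl and 77.6 ± 8.18 RPKM in siBAP18 (SD, n = 3 each). Its libraries were at 71.0, 75.0 and 72.3 RPKM in siCtrl and 79.1, 85.0 and 68.8 RPKM in siBAP18. Its groups overlapped, with a log2 fold change of 0.09 (SE 0.07, adjusted p = 0.309). COL7A1, the anchoring fibril collagen that ties the basement membrane to the tissue under it, was at 503, 497 and 510.0 CPM in siCtrl and at 421, 445 and 399 CPM in siBAP18. All siBAP18 libraries were lower, with a log2 fold change of −0.25 (SE 0.07, adjusted p = 0.00238), and its share of the summed collagen RPKM was 19.9, 19.1 and 19.7% in siCtrl and 15.8, 16.0 and 15.6% in siBAP18. COL18A1, whose C-terminal fragment is endostatin, had a log2 fold change of −0.19 (SE 0.07, adjusted p = 0.0205), a call lost when any siCtrl library or siBAP18 replicate 1 was left out. SLC19A1, on the opposite strand, covers 16.4% of the COL18A1 exon bases and had a log2 fold change of −0.17, so their counts are uncertain in part.

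Among 9 fibrillar collagens tested, 3 rose and 1 fell, or 44.4% in either direction against 49.6% of all genes tested. Besides COL11A2, COL5A1 had a log2 fold change of 0.24 (SE 0.07, adjusted p = 0.00423). COL5A3 stood at 0.32 on the log2 scale (with adjusted p = 0.0318), a call lost in 9 of 15 alternative analyses. COL1A1, a chain of the main collagen of connective tissue, was at 11.5, 12.8 and 11.7 CPM in siCtrl and at 9.98, 8.92 and 8.61 CPM in siBAP18. It fell, with a log2 fold change of −0.38 (SE 0.09, adjusted p = 0.00124), while ITGA3, which ends 92807 bases away from it on chromosome 17, rose. COL1A2, its partner chain, had only 18 counts in all 6 libraries and is no member. COL3A1, COL24A1, COL27A1 and COL11A1 had log2 fold changes of −0.52, 0.18, −0.12 and −0.20 and did not pass.

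Of 8 tested collagens that attach to other fibrils (FACIT), none rose and 2 fell, COL16A1 at −0.34 and COL22A1 at −0.75 on the log2 scale. The 2 are 25% of this class, against 49.6% of all genes tested that passed in either direction. The other FACIT chains ranged from −0.53 (COL9A3) to 0.71 (COL9A2) and did not pass. In collagen VI, which forms beaded filaments, COL6A1 fell by 0.32 on the log2 scale (with adjusted p = 0.00337), while COL6A2 and COL6A3 were at 0.06 and 0.29. COL17A1, the hemidesmosome collagen, stood at −0.29 on the log2 scale (with adjusted p = 0.0456), a call lost in 10 of 15 alternative analyses. COL15A1, COL26A1 and COL28A1 had log2 fold changes of 0.78, 0.29 and 0.21 and did not pass.

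The laminin chains did not all move one way. LAMA3 and LAMB3 are chains of the laminin that anchors epithelial cells through hemidesmosomes, and LAMA5, LAMB1 and LAMC1 make the widespread basement membrane form. LAMB3 was at 107, 102 and 109 CPM in siCtrl and at 144, 124 and 148 CPM in siBAP18, with a log2 fold change of 0.39 (SE 0.07, adjusted p = 7.00e-05). It rose, whereas its partner LAMA3 fell. LAMA3 was at 32.3, 31.4 and 32.0 CPM in siCtrl and at 25.3, 27.2 and 22.9 CPM in siBAP18, with a log2 fold change of −0.34 (SE 0.07, adjusted p = 4.57e-04). In the other form LAMB1 and LAMC1 fell and LAMA5 rose. LAMB1, the most abundant laminin chain per length, was at 914, 897 and 898 CPM in siCtrl and at 652, 650.2 and 581 CPM in siBAP18, with a log2 fold change of −0.52 (SE 0.07, adjusted p = 4.62e-07). LAMC1 was at 478, 482 and 475 CPM in siCtrl and at 379, 398 and 343 CPM in siBAP18, with a log2 fold change of −0.36 (SE 0.07, adjusted p = 1.04e-04). LAMA5 was at 348, 345 and 343 CPM in siCtrl and at 404, 399.7 and 399.8 CPM in siBAP18, with a log2 fold change of 0.22 (SE 0.06, adjusted p = 0.00578). For each of these chains no library of a group lay inside the range of the other.

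**Figure D4:**
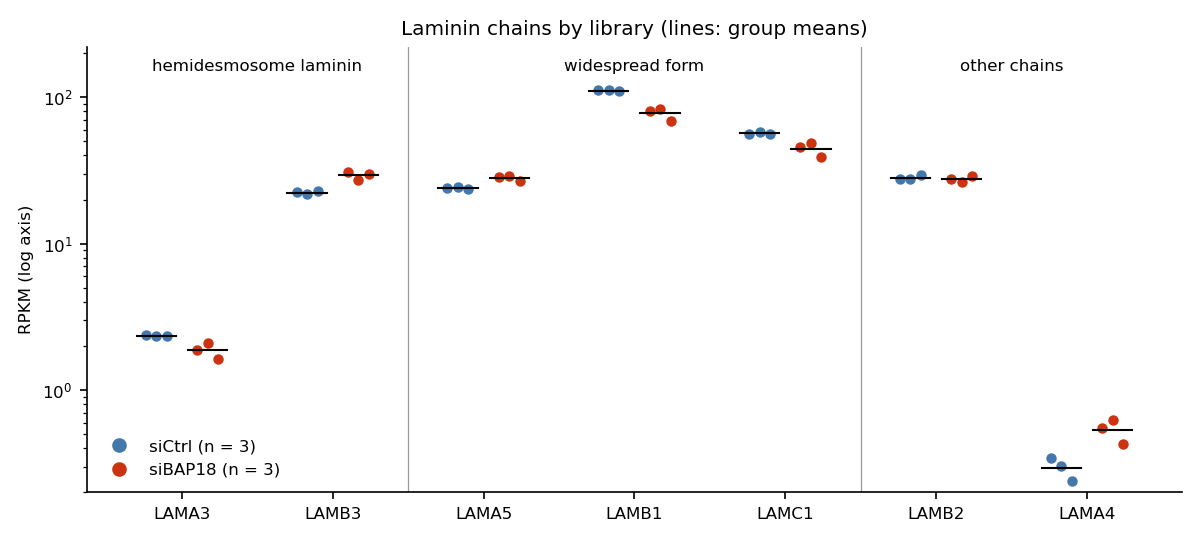
RPKM on a log axis of laminin chains in each library (blue, siCtrl; red, siBAP18; lines are means of 3). LAMB1 is the highest chain in every library and is lower in siBAP18, while LAMB3 and LAMA5 are higher and LAMB2 overlaps.

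The LAMB1 and LAMB3 shares of all siBAP18 libraries lay outside the control range. Of the summed β chain RPKM, LAMB1 made up 68.9, 69.2 and 67.8% in siCtrl and 58.1, 60.7 and 53.7% in siBAP18. Over the same pool LAMB3 made up 13.9, 13.5 and 14.1% in siCtrl and 22.1, 19.9 and 23.5% in siBAP18. LAMB2, the β2 chain, was at 192, 188 and 202 CPM in siCtrl and at 188, 176 and 208 CPM in siBAP18. It did not pass, at −0.03 on the log2 scale (with adjusted p = 0.758). LAMA4, an α chain of vessel and muscle laminins, averaged 0.295 ± 0.0521 RPKM in siCtrl and 0.535 ± 0.0971 RPKM in siBAP18 (SD, n = 3 each) and rose, with a log2 fold change of 0.85 (SE 0.14, adjusted p = 1.46e-05). LAMC3 was at −0.41 on the log2 scale (with adjusted p = 0.0967).

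ITGB1, the β chain shared by most collagen, laminin and fibronectin receptors, was the most abundant member per length at 227 ± 1.44 RPKM in siCtrl and 168 ± 17.3 RPKM in siBAP18 (SD, n = 3 each). It was at 1373, 1362 and 1372 CPM in siCtrl and at 983, 1083 and 948 CPM in siBAP18. All siBAP18 libraries were lower, with a log2 fold change of −0.45 (SE 0.07, adjusted p = 5.69e-06). Its α partners did not all follow. ITGA3, the α chain of the laminin receptor α3β1, was at 396, 379 and 405 CPM in siCtrl and at 551, 512 and 579.5 CPM in siBAP18. It rose, with a log2 fold change of 0.48 (SE 0.07, adjusted p = 2.07e-06). ITGA6, which pairs with β1 or, in hemidesmosomes, with β4, was at 60.2, 60.0 and 59.6 CPM in siCtrl and at 36.8, 43.1 and 35.4 CPM in siBAP18. It fell, with a log2 fold change of −0.64 (SE 0.07, adjusted p = 9.40e-08). ITGA7, a laminin receptor of muscle, also fell, by 0.55 on the log2 scale (with adjusted p = 0.00173). Of the summed α chain RPKM, ITGA3 made up 61.5, 60.5 and 62.1% in siCtrl and 73.3, 70.5 and 74.4% in siBAP18. In the same pool ITGA6 made up 14.0, 14.4 and 13.7% in siCtrl and 7.34, 8.92 and 6.83% in siBAP18.

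None of the 4 collagen-binding α chains rose and 3 fell. In either direction 75% of these 4 passed, against 49.6% of all genes tested, a difference that was not tested. ITGA2, the epithelial collagen receptor chain, was at 22.7, 21.8 and 21.4 CPM in siCtrl and at 16.7, 18.6 and 16.8 CPM in siBAP18, with a log2 fold change of −0.34 (SE 0.08, adjusted p = 6.70e-04). ITGA1 and ITGA10 fell by 0.81 and 0.66 on the log2 scale (with adjusted p = 3.86e-05 and 4.97e-04). ITGA11 did not pass, at −0.15 (adjusted p = 0.238). ITGA1 and ITGA2 are neighbours on chromosome 5 with 30115 bases between them. A small part of the ITGA1 exons, 2.56%, is shared on the same strand with PELO, which had a log2 fold change of 0.35.

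The chains that bind RGD proteins were divided. ITGA5, the fibronectin receptor chain, was at 18.9, 19.7 and 19.9 CPM in siCtrl and at 24.2, 22.6 and 25.4 CPM in siBAP18, with a log2 fold change of 0.30 (SE 0.08, adjusted p = 0.00170). ITGAV, the α chain of the vitronectin receptors, was at 35.3, 34.9 and 35.6 CPM in siCtrl and at 22.9, 27.8 and 23.8 CPM in siBAP18, with a log2 fold change of −0.50 (SE 0.08, adjusted p = 5.74e-06). One rose and one fell, each with no overlap between groups. ITGB3, a β partner of ITGAV, was at 1.54, 1.29 and 0.941 CPM in siCtrl and at 2.21, 2.71 and 2.66 CPM in siBAP18. It rose, with a log2 fold change of 0.99 (SE 0.19, adjusted p = 1.33e-04), just under the fold threshold. RP11-290H9.2 covers 51.6% of its exon bases on the same strand and had a log2 fold change of 0.88, so their counts are uncertain. ITGB8, another partner of ITGAV, was at 1.65, 1.53 and 1.88 CPM in siCtrl and at 0.992, 1.23 and 1.18 CPM in siBAP18, with a log2 fold change of −0.57 (SE 0.21, adjusted p = 0.0241), a call lost in 4 of 13 alternative analyses. ITGB5, also a partner of ITGAV, was at 422, 413 and 408 CPM in siCtrl and at 378, 349 and 379 CPM in siBAP18. Its log2 fold change of −0.17 (SE 0.07, adjusted p = 0.0334) was lost as a call in 5 leave-one-out fits. ITGB6 had 10, 2 and 5 counts in siCtrl and 8, 16 and 2 in siBAP18 and was not tested.

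ITGB4, the hemidesmosome β chain, was at 211, 207 and 208 CPM in siCtrl and at 206, 190.3 and 221 CPM in siBAP18. The groups overlapped, with a log2 fold change of −0.02 (SE 0.07, adjusted p = 0.836). Within the summed β chain RPKM, ITGB1 made up 70.0, 70.3 and 70.6% in siCtrl and 64.4, 68.3 and 63.0% in siBAP18. ITGB5 made up 20.1, 19.9 and 19.6% in siCtrl and 23.1, 20.5 and 23.5% in siBAP18. ITGB4 made up 9.57, 9.47 and 9.51% in siCtrl and 12.0, 10.7 and 13.1% in siBAP18, so the share of ITGB1 was lower and those of ITGB4 and ITGB5 higher in every siBAP18 library. Neither ITGB4 nor ITGB5 rose in level, with log2 fold changes of −0.02 and −0.17, and their larger shares go with the fall of ITGB1 in the same pool. ITGA4 and ITGA9, which bind VCAM1 among others, ITGA2B of the platelet receptor and ITGB7 of gut lymphocytes had log2 fold changes of 0.63, 0.26, 0.07 and −0.02 and did not pass. ZNF740, on the opposite strand, covers 42.1% of the ITGB7 exon bases.

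**Figure D5:**
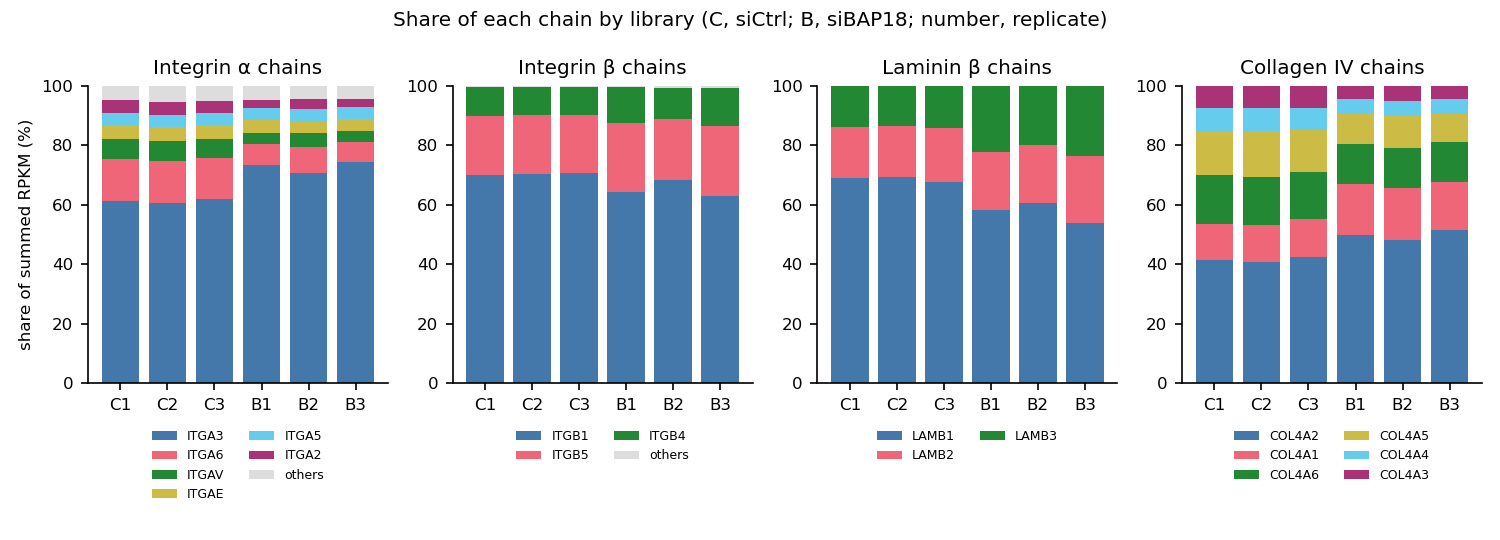
Share of each chain in the summed RPKM of its pool (integrin α, integrin β, laminin β and collagen IV chains) in each library, as stacked bars. In siBAP18 libraries (B1 to B3) ITGA3, LAMB3 and the pair COL4A1 and COL4A2 take larger shares than in siCtrl libraries (C1 to C3), and ITGA6, ITGB1 and LAMB1 smaller ones.

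The shares were chosen after the values of the members were seen. Of 13 shares compared, 12 had an exact two-sided permutation p of 0.1, the smallest possible, and a Benjamini-Hochberg adjusted p of 0.108. In the same exact test COL5A2 among the collagens had p = 0.4. No share could pass 0.05 in this design, so these p-values cannot decide whether a share differed and are no support for the changes described.

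Related genes also moved in both directions. The lists were collagen maturation, other matrix proteins, other collagen and laminin receptors and the integrin adhesion complex. Of 84 tested genes in them, 27 rose and 29 fell. In either direction 66.7% of the 84 passed, against 49.6% of all genes tested. By list the share was 53.8%, 83.3%, 66.7% and 67.7% in the order given. The differences from all genes were not tested. Among 26 maturation genes 7 rose and 7 fell. LOXL2, which crosslinks collagen, rose from 6.84 to 16.4 RPKM (log2 fold change 1.26, adjusted p = 9.64e-14). P4HA3, an α subunit of prolyl 4-hydroxylase, fell by 0.90 on the log2 scale (with adjusted p = 5.70e-11). PLOD2 and P3H2, a lysyl and a prolyl hydroxylase, fell by 0.58 and 0.54.

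Of 18 other matrix genes 8 rose and 7 fell. FBN2, the microfibril protein fibrillin-2, and TNC, tenascin C, rose with log2 fold changes of 1.17 and 1.47 (adjusted p = 1.50e-12 and 7.79e-11). FN1, fibronectin, fell from 61.5 to 35.5 RPKM (log2 fold change −0.80, adjusted p = 3.55e-10), and TGFBI, a matrix protein that binds integrins, rose from 34.0 to 55.3 RPKM. Of 9 other receptors 2 rose and 4 fell. BCAM, a receptor for laminin α5, fell by 1.01 on the log2 scale (with adjusted p = 1.62e-11), and DDR1, a collagen receptor kinase, fell by 0.77. SDC4, a syndecan of focal adhesions, stood at 1.00 on the log2 scale (with adjusted p = 4.05e-09). SDC3, another syndecan, fell by 0.49.

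In the adhesion complex 10 of 31 genes rose and 11 fell. TNS4, a tensin, fell by 0.81 on the log2 scale, while TNS3, another tensin, PLEC, the cytoskeletal linker plectin, and ILK, a scaffold at the integrin β tail, had log2 fold changes of 0.68, 0.71 and 0.69. Epithelial markers summed to 4378 to 4670 RPKM in siCtrl and 3685 to 4274 RPKM in siBAP18. One of the 6, KRT7, rose and 4 fell, CDH1 by 1.32 on the log2 scale, where 49.6% of all genes tested passed in either direction. Fibroblast markers summed to 0.282 to 0.393 RPKM in siCtrl and 0.216 to 0.330 RPKM in siBAP18, and endothelial markers to 0.138 to 0.166 and 0.142 to 0.165 RPKM. Among the fibroblast markers 2 were tested, of which THY1 fell by 0.64 on the log2 scale (with adjusted p = 0.0138) and PDGFRA did not pass, at 0.59. Both endothelial markers tested passed both thresholds in opposite directions, PECAM1 at −1.53 and CDH5 at 1.10 on the log2 scale (with adjusted p = 0.00123 and 0.0148), from 144 and 136 counts in all. No marker listed was at 0 in all libraries, and their part in the members' values was not tested.

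As with ITGB6, 3 other members were too low to test. COL2A1 had 2, 4 and 0 counts in siCtrl and 12, 8 and 8 in siBAP18. LAMA1 had 4, 6 and 2 counts in siCtrl and 13, 10 and 10 in siBAP18. ITGAD, which follows ITGAX on chromosome 16, had 8, 5 and 11 counts in siCtrl and 3, 2 and 9 in siBAP18. Among the 34 members with a mean RPKM of at least 1, 9 rose and 16 fell, and among the 32 tested below that level 6 rose and 8 fell. In either direction 73.5% of the former and 43.8% of the latter passed, against 49.6% of all genes tested, whatever their level. The share of all genes at each level was not computed.

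Bases 2 to 8 of an siRNA's guide strand are those through which it most often pairs with other mRNAs, and 3′ UTRs of GENCODE 29 were searched for the words that match them in the siRNAs of the study's methods. ACTCAAC, the word of the third BAP18 siRNA, is in 6.26% of 13421 tested genes and in 3 of the 66 tested members, ITGA1, ITGB8 and ITGA9. For the members that fell, 1 site each is shown with the word in capitals.
ITGA1, chr5:52958520-52958549, + strand: tatacaagagaACTCAACatttactgtttt
ITGB8, chr7:20413285-20413314, + strand: aattttccaaaACTCAACattaaaatttgt
AATCACA, the word of the first siRNA, is in 12.7% of tested genes and in 8 of the 66 tested members. COL4A1, COL4A2, COL5A1 and ITGB3 of these rose, ITGAV and LAMB1 fell and COL11A1 and COL27A1 did not pass. AAGATTC, that of the second, is in 9.90% of tested genes and in 6 members. Of these 6, COL4A3, COL4A4 and COL4A5 fell and the others did not pass. Over tested genes with the word the median log2 fold change was −0.15 for the first, −0.14 for the second and −0.26 for the third. Over tested genes without it the medians were 0.004, −0.001 and −2e-05. TGTCACG, the word of the control siRNA, is in 2.74% of tested genes and in 2 members, COL6A3 and ITGA9, neither past the threshold. The median was 0.024 over tested genes with this word and −0.016 over those without it. Genes with and without a word were not matched for 3′ UTR length or base content. The part of these words, or of such differences, in the medians and in the members' values was not tested.

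RefSeq promoter windows, 250 bases before to 50 after a start, were found for 49 members with 65 windows. The GC box was in 60.0% of these windows and in 45.0% of all 35116 windows. TGANTCA, the AP-1 motif, was in 4.62% and 7.71%, and GCGNGGGCG, the EGR motif, which overlaps the GC box letters, was in 12.3% and 9.43%. Each motif was searched on both strands, and a match is a description of letters only. Exons of 25 members overlap another listed gene; because the use of strand in counting is not given in the sources used here, the counts of such genes are uncertain in part.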

How the data were processed

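The authors deposited counts of reads per gene, which are whole numbers without normalization, and RPKM values, which scale them by gene length and library total. The labels describe poly(A) RNA, a strand-marking library and paired reads. The aligner, counting program and use of strand are not given in the sources used here. Gene positions are those of the deposited files, and 58 of 70 members have the same start and end in GENCODE 29. All 6 libraries were analysed. Of the members, 1 is counted among the totals but is not reported here.

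The test on counts used edgeR 4.0.16 in R 4.3.3 (filterByExpr, TMM, quasi-likelihood test by group, Benjamini-Hochberg adjustment over 20776 genes). SE is the log2 fold change over the square root of F. Genes were called at an adjusted p under 0.05, alone or with an absolute log2 fold change over 1. RPKM was used to compare levels between genes and for shares. Values in every library were given for C17orf49, members past both thresholds, the 3 most abundant members of each family and set laminin, collagen IV and integrin chains; related genes are the 4 of smallest adjusted p per list, and other members appear by class. Members and lists were chosen with earlier results of these data known. Shares, the RPKM split, motifs, exon overlaps, neighbours and guide words were chosen after the members' values were seen. On simulated data 200 of 200 genes changed by 1.5 on the log2 scale were called at both thresholds. Of the other genes, of 20460 in all, 8 were called so and 23 at the adjusted p alone. The changed genes were drawn from those with higher counts. The simulation therefore does not cover low members such as LAMA2 and COL13A1, or smaller changes.

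Alternatives were other scalings, filters, limma 3.58.1 on log2(RPKM + 1) or log2(RPKM + 0.1), the DESeq2 1.42.0 Wald test, a replicate block and each library left out. Replicates differed by more than sampling noise, and more so in siBAP18. The chi-square over its degrees of freedom was 4.14 to 4.81 between siCtrl libraries and 11.2 to 25.8 between siBAP18 libraries. Figures and sequence searches used Python 3.11.15, pandas 2.3.3, numpy 2.4.6 and matplotlib 3.10.9.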

Additional observations from a re-analysis of the deposited data

How the results depend on the processing

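Of the 39 members past the adjusted p, 27 passed in every alternative that gave a value and 12 were lost in at least 1, while 8 of the other 27 passed in at least 1. No member past the threshold in either fit changed sign; among 939 pairs of member and alternative, 27 in 9 members changed sign with neither value past the threshold. The cause of these changes was not tested. With limma on log2(RPKM + 1), with or without a filter, 0 members passed both thresholds in either direction (from 4 higher and 2 lower); with log2(RPKM + 0.1), 2 were higher and 0 lower. At the adjusted p alone COL16A1, COL17A1 and COL5A3 were lost in all 3 limma fits, and COL1A1, COL4A5, ITGA10 and LAMA3 in the unfiltered one but not the filtered ones. COL22A1, ITGAX and ITGB8 were lost in the unfiltered fit and did not reach the RPKM minimum of the filtered ones. A pseudocount shrinks fold changes of low genes by construction. Without a filter, limma put 15 rather than 24 members lower at the adjusted p alone. The collagen median of 0.06 became −0.0844 with limma on log2(RPKM + 1) and −0.127 on log2(RPKM + 0.1). The laminin median of 0.09 became 0.22 with the DESeq2 Wald test, 0.20 with no filter, −0.0219 with at least 10 counts in every library, −0.0265 with limma on log2(RPKM + 1), −0.0274 on log2(RPKM + 0.1) and 0.0122 with limma without a filter. The integrin median of −0.17 became −0.25 with at least 10 counts in every library and −0.0475 with limma without a filter. With each library left out in turn, members past both thresholds ran from 4 to 7 higher and from 1 to 2 lower, members at the adjusted p alone from 14 to 17 higher and from 20 to 25 lower, and the medians from −0.0765 to 0.0871 for collagens, 0.0647 to 0.221 for laminins and −0.27 to −0.18 for integrins. The negative collagen median came without siBAP18 replicate 2. The 7 came without siCtrl replicate 2, when COL2A1, LAMA1 and ITGB3 joined. The 1 lower came without siCtrl replicate 1, which lost ITGAX, and without siBAP18 replicate 2, which lost ITGAL. C17orf49 stayed between −2.72 and −2.60. Same-numbered libraries did not deviate together (r = −0.0166, 0.0506 and 0.00379 across genes), and with a replicate block 4 members were higher and 2 lower past both thresholds, and 15 and 25 at the adjusted p alone. Members with few counts, such as LAMA2 and COL13A1, limit what can be resolved.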
